A study of Mus musculus with 36 samples.

Results

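Short interspersed elements (SINEs) were followed in mouse embryonic fibroblast (MEF) cells after a transcriptional activator had been targeted to the major satellite repeat (MSR). The members were the repeat families whose annotated class is SINE, and they were found by that class alone: 37 of the 1561 repeat families counted, beside 54842 genes. They fell into 7 superfamilies, with 16 families of the Alu superfamily (the B1 elements of the mouse and their older relatives), 5 of B2, 4 of B4, 4 of ID, 4 of MIR, 2 of Deu and 2 named for tRNA. All 37 passed the filter on low counts, as did 1492 of the 1561 families.

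The study compared MSR-dCas9-Activator MEF cells, in which catalytically dead Cas9 is fused to the activator VPR, with MSR-dCas9-Control MEF cells, which make dead Cas9 with no effector. In both lines the dead Cas9 construct was integrated with the PiggyBac transposon, and the guide RNA to the MSR was made constitutively from the same plasmid. Cells were kept under hygromycin as mixed cultures. The construct was switched on with doxycycline, in medium without hygromycin. Control cells had 10 ng/ml doxycycline for 24 h and Activator cells 10 ng/ml for 6 h, so the induced groups differed in exposure time as well as in effector, and these cannot be told apart. Total RNA, depleted of ribosomal RNA, was sequenced before induction, at the end of induction, and then 3 h, 6 h, 12 h and 24 h following the removal of doxycycline, with 3 replicates in each of the 12 groups (36 libraries). By flow cytometry the study saw no loss of viability in these lines at doxycycline removal. It found most Activator cells apoptotic or dead 24 h later, while Control cells stayed highly viable. The part of this cell death in the values at 24 h was not tested. The labels number the replicates and do not say what one is. The study's methods call them biological replicates, and the p-values measure the spread between these libraries.

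SINEs are short retroposons that make no protein of their own and move with the machinery of LINE elements. Most mouse SINEs descend from tRNA genes (B2, ID, MIR) or from the 7SL RNA gene (B1), and their internal promoters are read by RNA polymerase III. Copies also lie in introns and untranslated regions of genes, where they are carried in longer RNA polymerase II transcripts. B2 RNA is known to rise in mouse cells under heat shock, viral infection and other stress. A family count adds up reads from all copies, so it has no genome position, and transcripts started at a SINE and SINE sequence inside a host transcript cannot be told apart here. B2_Mm1a, B2_Mm1t and B2_Mm2 are close relatives within the young B2 group, and B3 and B3A are older B2 families; reads from near-identical copies could be split between the young families by the counting, so their separate values are uncertain and their sum is given too.

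Libraries held between 27376846 and 57371803 gene counts and between 2958859 and 5851179 SINE counts. Levels are CPM, counts of a family scaled to the library's gene counts with factors from genes only. The targeted satellite, GSAT_MM, was at 22.6 to 47.1 in the 18 Control libraries and at 2362 to 47240 in the 15 Activator libraries after doxycycline. In uninduced Activator libraries it was at 52.1 to 99.3, already above every Control library, though edgeR did not call the difference. The minor satellite SYNREP_MM was also higher there before induction, at a mean of 11.9 against 1.58 (log2 fold change 2.90 ± 0.40 SE, edgeR adjusted p = 4.0e-04). Of 8 fibroblast markers, 7 averaged at least 10 CPM (Col1a1 9327) and Thy1 was at 0.0442, and their sum was 22150 to 34360 in Control and 10800 to 33750 in Activator libraries. The summed markers of other cell types stayed low in Control libraries (3 endothelial markers 0.0919 to 0.873, 4 haematopoietic 3.87 to 5.53, 4 epithelial 0.506 to 0.817, 3 neuronal 0 to 0.405, 3 hepatocyte 0 to 0.145). They reached higher maxima in Activator libraries (33.5, 11.2, 3.64, 9.73 and 8.10 in the same order). Averaged over all libraries, the highest marker of each list was Pecam1 (9.61), Cd68 (4.66), Cdh1 (0.746), Syt1 (1.87) and Alb (1.72). The lowest was Cdh5 (0.106), Adgre1 (0.00715), Krt5 (0.0081), Snap25 (0.0342) and Apoa1 (0.103). Gm26917, a noncoding transcript chosen after its values were seen, took 0.931 to 7.36% of gene counts in Control and 3.20 to 15.9% in Activator libraries after doxycycline. The part of these differences in the SINE results was not tested. In bulk RNA, fewer cells of a type and less RNA per cell cannot be told apart.

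Before induction no SINE family was called. A family was called at an adjusted p under 0.05 by quasi-likelihood in edgeR, adjusted by Benjamini-Hochberg over all 1492 repeat families. Of the 37, 0 were called in either direction, against 0.067% of all repeat families higher and 0% lower in Activator cells, and no SINE family had an unadjusted p under 0.05. DESeq2 also called 0. The median log2 difference of the 37 was 0.02, within a range of −0.07 to 0.16.

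After induction a few SINE families were called higher and many were called lower by a small amount. As induction ended 0 of 37 were higher and 13 were lower (35.1%), against 25.7% and 21.1% of all repeat families. 3 h after removal 3 of 37 were higher and 22 lower (59.5%), against 38.7% and 23.9% overall. The 6 h cells had 3 families higher and 18 lower (48.6%), while all repeat families gave 41.3% and 17.8%. The 12 h and 24 h cells each had 5 families higher (13.5%) and 1 lower, against 52.9% and 9.99% of all repeat families in the former and 33.3% and 4.49% in the latter. The SINE share called lower thus lay above that of all repeats from the end of induction to 6 h, and the SINE share called higher lay below it at every time after induction. Such falls were not particular to SINEs. Of 198 DNA transposon families 83, 96 and 81 were lower from the end of induction to 6 h and 19, 29 and 35 higher. Their medians were −0.28, −0.34 and −0.23. Of 662 LTR families 285, 413 and 430 were higher at those times and 40, 38 and 30 lower. The median log2 fold change of the 37 families was −0.26, −0.33, −0.27, −0.06 and −0.08 from the end of induction to 24 h, while that of all tested repeats was 0.01, 0.13, 0.22, 0.42 and 0.18. Single libraries carried much of the count lower. At the end of induction the total called was 4 without replicate 2 of all groups (3 higher, the B2_Mm families, and 1 lower), 4 without Activator replicate 2, 4 without Control replicate 3 and 25 without Control replicate 1. Without replicate 3 the 3 h cells had 0 higher and 3 lower, and without replicate 1 the 6 h cells had 3 higher and 1 lower.

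The count of small falls depended on the scaling too. DESeq2 size factors gave 3 families higher and 7 lower 3 h after removal, then 4 and 1 in the 6 h cells, 9 and 1 in the 12 h cells, and 7 and 0 in the 24 h cells. Scaling to the 13 mitochondrially encoded mRNAs gave 1 higher and 34 lower in the 3 h cells, 2 and 34 in the 6 h cells, 2 and 30 in the 12 h cells, and 3 and 1 in the 24 h cells. That scaling shifted the median log2 difference of all genes to −0.27, −0.48, −0.62, −0.54 and −0.21 from the end of induction to 24 h, against 0.11, 0.17, 0.14, 0.13 and 0.01 with the main scaling. The mitochondrial mRNAs themselves took 1.41, 1.47 and 1.33 times the share of gene and repeat counts in Activator cells at 3, 6 and 12 h, with no overlap of the groups, and the part of this in the values under that scaling was not tested. The share of all repeat families called was not counted under these scalings or without single libraries or replicates. The SINE counts under those settings therefore cannot be set against it.

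**Figure D1:**
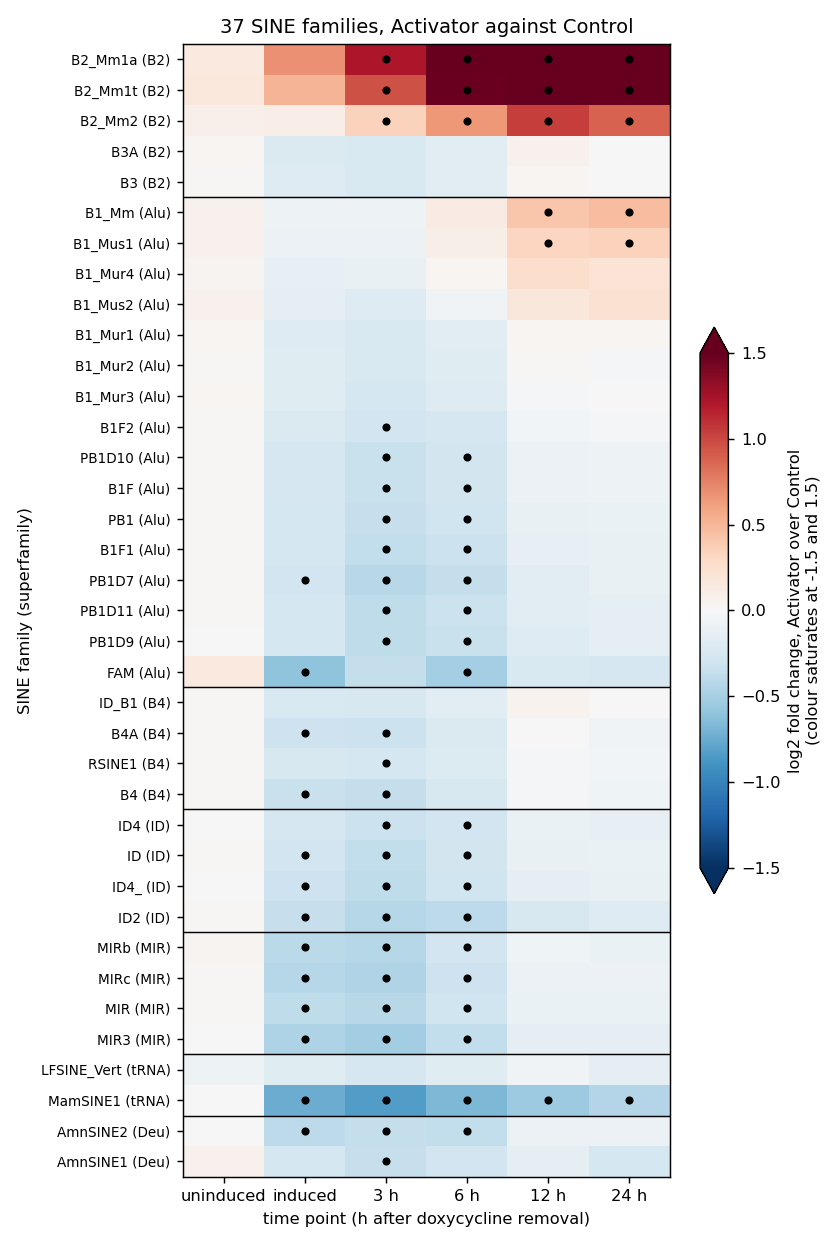
The log2 fold change of Activator over Control cells is shown for each of the 37 SINE families (grouped by superfamily) at 6 time points (columns), with a black dot where the adjusted p is under 0.05 and colours that saturate at −1.5 and 1.5. The top 3 families, B2_Mm1a, B2_Mm1t and B2_Mm2, are red and dotted from 3 h on, while dotted pale blue fills the MIR, ID and PB1 families at 3 h and 6 h and is left by 12 h in MamSINE1 alone.

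B2_Mm1a showed the largest rise of the 37 families. In the 18 Control libraries it lay between 1147 and 1850 CPM, with a median of 1455. In uninduced Activator cells replicates 1 to 3 were at 1434, 1167 and 2129. At the end of induction they were at 2587, 2028 and 2455 against 1147, 1483 and 1747 in Control cells. The groups no longer overlapped, although the difference did not pass the test (log2 fold change 0.68 ± 0.29 SE, edgeR adjusted p = 0.0603).

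At 3 h after removal B2_Mm1a was at 4300, 2353 and 3641 in Activator cells and at 1208, 1498 and 1609 in Control cells. This was a 2.32-fold rise (log2 1.21 ± 0.30, edgeR adjusted p = 0.00122). At 6 h the Activator replicates were at 7581, 3217 and 5828 and the Control replicates at 1320, 1427 and 1684 (3.63-fold, log2 1.86 ± 0.30, adjusted p = 1.31e-05). At 12 h B2_Mm1a reached 9864, 4555 and 9342 against 1391, 1495 and 1850, the largest fold change of any SINE family between the lines (4.85-fold, log2 2.28 ± 0.31, adjusted p = 6.90e-07). At 24 h it was at 8857, 2798 and 9626 against 1322, 1336 and 1788 (4.54-fold, log2 2.18 ± 0.31, adjusted p = 3.26e-06). All 15 Activator libraries after doxycycline lay above all 18 Control libraries. Activator replicate 2 was the lowest of its group at each of these times, and without replicate 2 the log2 fold change from 3 h to 24 h was 1.72, 2.35, 2.67 and 2.70. Without replicate 3 the 3 h difference kept its size (1.22) and its adjusted p was 0.0512. With the libraries of 24 h fitted alone the adjusted p there was 0.121 at a log2 fold change of 2.26.

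B2_Mm1t followed B2_Mm1a at smaller folds. At the end of induction it was at 2391, 1951 and 2641 in Activator cells against 1243, 1652 and 1995 in Control cells, which overlapped. At 12 h the Activator replicates were at 8025, 4196 and 7974 and the Control replicates at 1593, 1687 and 2152. The groups were apart by a factor of 3.65 (log2 1.87 ± 0.26, edgeR adjusted p = 9.72e-07), with log2 fold changes of 0.96, 1.48 and 1.72 at 3, 6 and 24 h, all called. With the libraries of 6 h fitted alone the adjusted p there was 0.053. Its 3 h call was lost without replicate 3 (0.995, adjusted p = 0.058) and with the mitochondrial scaling (0.365, adjusted p = 0.148).

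B2_Mm2, the most abundant of the young families here, had the smallest folds of the 3. At the end of induction its Activator replicates were at 6473, 5353 and 7766 and its Control replicates at 4570, 6557 and 7107, which overlapped. At 12 h the Activator replicates were at 15360, 11340 and 16000 against 6438, 6607 and 7688, with no overlap. Its log2 fold change was 0.10 at the end of induction (adjusted p = 0.571), and 0.34, 0.65, 1.04 and 0.89 from 3 h to 24 h, the last 4 called by edgeR. The 3 h call was the least firm: 9 of 19 alternative settings kept it, and without replicate 1 the value was 0.21 (adjusted p = 0.326). Scaled to mitochondrial mRNAs B2_Mm2 was at −0.25 at 3 h and −0.05 at 6 h, above the median of all genes under that scaling by 0.233 and 0.565, and its 12 h value of 0.41 was not called (adjusted p = 0.111).

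The older B2 families were called at no time. B3 was at 13910, 15370 and 14730 in Activator cells at 12 h and at 14530, 14230 and 14120 in Control cells, which overlapped (log2 fold change 0.04, 95% interval −0.196 to 0.266, edgeR adjusted p = 0.81). At 3 h B3 was at 11060, 12920 and 9051 against 12250, 13760 and 12710, a log2 difference of −0.23 that did not pass the test (adjusted p = 0.0807). B3A lay between −0.23 and 0.06 at all time points.

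**Figure D2:**
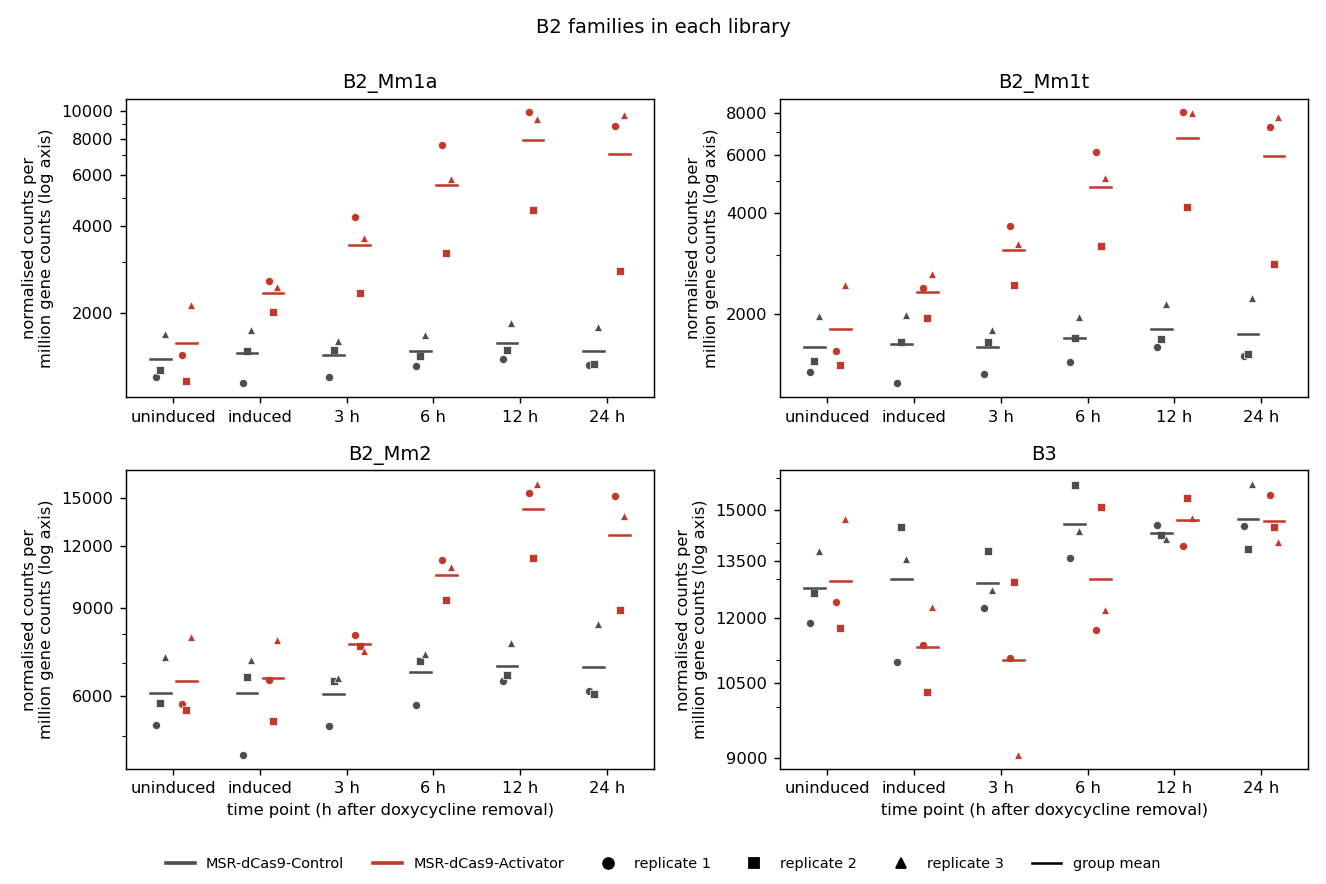
Levels in CPM relative to gene counts (log axis) of B2_Mm1a, B2_Mm1t, B2_Mm2 and B3 are plotted for every library by time point, with grey for Control, red for Activator, a marker shape for each replicate and bars at the group means. B2_Mm1a in Activator cells climbs from 2028 to 2587 at the end of induction to 4555 to 9864 at 12 h, with replicate 2 lowest, while B3 in both lines stays between 9051 and 15810.

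Within the Activator line B2_Mm1a was called from 3 h on. Against uninduced Activator cells B2_Mm1a had a log2 change of 0.61 at the end of induction (edgeR adjusted p = 0.0875), and 1.13, 1.81, 2.32 and 2.12 from 3 h to 24 h, these last 4 called. Neighbouring time points, compared after their values were seen, were not called for B2_Mm1a: the log2 steps were 0.52, 0.68 and 0.51 up to 12 h and −0.195 from 12 to 24 h, with adjusted p of 0.479, 0.198, 0.64 and 0.713. The largest single step of B2_Mm2 was 0.45 from 3 to 6 h (adjusted p = 0.144).

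The ratio of young to old B2 families needs no scaling between libraries. B2_Mm1a, B2_Mm1t and B2_Mm2 together made 44.2, 45.4 and 53.3 counts per 100 B3 and B3A counts in uninduced Control cells and 47.5, 47.1 and 57.2 in uninduced Activator cells, which overlapped. As induction ended the Activator replicates were at 68.1, 61.2 and 70.8 and the Control replicates at 42.4, 45.0 and 54.0, so that the groups were apart. At 12 h the ratios were 160.5, 87.9 and 151.7 against 43.7, 46.6 and 55.9. The Activator mean was 1.42, 1.88, 2.44, 2.74 and 2.56 times the Control mean from the end of induction to 24 h, and 1.06 times before induction. From the end of induction on, all 9 pairs of Activator and Control libraries gave a higher ratio in Activator cells at each time. This ratio was chosen after the values of its families were seen. It sets families called higher from 3 h on over B3 and B3A, called at no time, so it gives those calls no separate support. The two-sided exact permutation p was 0.1 at these times, the smallest that 3 against 3 can give, and 0.12 after adjustment over the 6 time points.

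The same 3 families made up 8.14 to 10.3% of all SINE counts in the 18 Control libraries, a share that was not among those planned. In Activator cells they took 12.99, 11.7 and 13.2% at the end of induction and 25.7, 15.7 and 24.2% at 12 h. The groups did not overlap from the end of induction on. As counted, the balance within the trio differed as well: B2_Mm1a was at 20.2 to 25.1 counts per 100 B2_Mm2 counts in Control libraries and at 31.1 to 69.7 in Activator libraries after doxycycline. That ratio was not among the planned shares. It rests on the separate values of these families, which are uncertain because the counting could split reads between them. The whole B2 superfamily took 27.5 to 28.9% of SINE counts in Control libraries and 30.8 to 41.8% in Activator libraries after doxycycline.

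**Figure D3:**
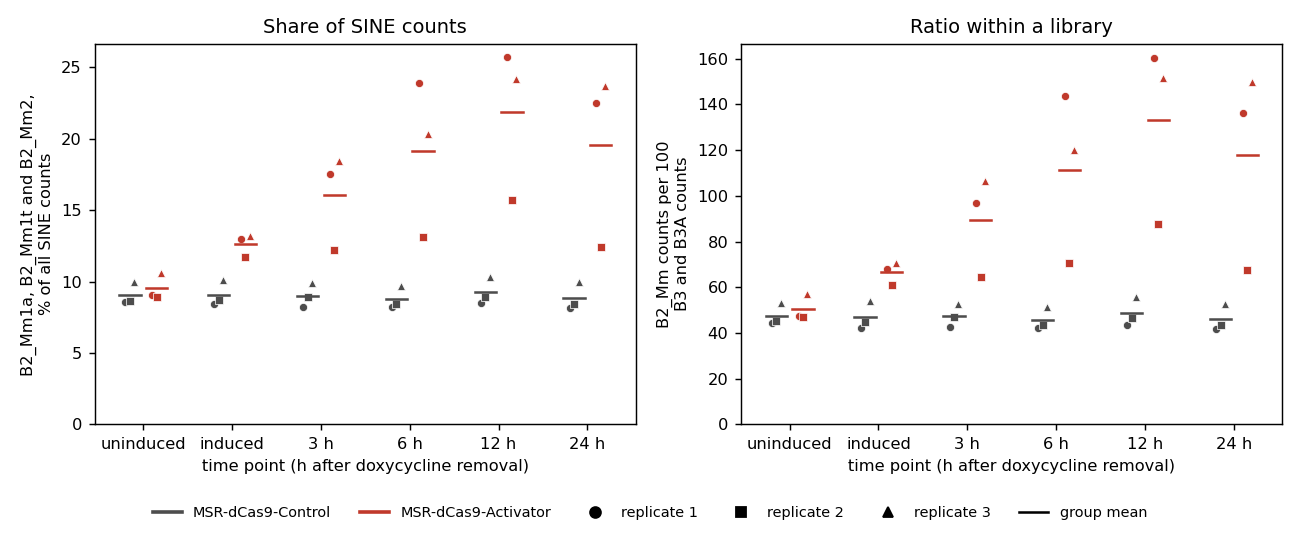
The share of all SINE counts taken by B2_Mm1a, B2_Mm1t and B2_Mm2 together (left, %) and their counts per 100 B3 and B3A counts (right) are plotted for every library by time point, with bars at group means and axes from 0. Control libraries stay at 8.14 to 10.3% and 41.6 to 55.9, and Activator libraries after doxycycline lie above them at 11.7 to 25.7% and 61.2 to 160.5, replicate 2 being lowest from the end of induction on.

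The B1 families called higher in Activator than in Control cells were B1_Mm and B1_Mus1, both young, at 12 h and 24 h. B1_Mm was, as induction ended, at 1398, 1288 and 1791 in Activator cells against 1220, 1678 and 1814 in Control cells, which overlapped. At 12 h it was at 2299, 2152 and 2772 against 1695, 1721 and 1997, with no overlap (log2 fold change 0.41 ± 0.12, edgeR adjusted p = 0.00211). At 24 h it was at 2697, 1951 and 2645 against 1622, 1608 and 2091, which overlapped through Activator replicate 2 (0.47 ± 0.12, adjusted p = 0.00111). B1_Mus1 had log2 fold changes of 0.33 at 12 h and 0.35 at 24 h (edgeR adjusted p = 0.0143 and 0.0164).

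The B1_Mm call was kept under 16 of 18 alternative settings at 12 h and at 24 h, and the B1_Mus1 call under 13 of 18 at 12 h and 12 of 18 at 24 h. Without replicate 1 the 24 h values were 0.31 for B1_Mm and 0.23 for B1_Mus1 (edgeR adjusted p = 0.261 and 0.473), and scaling to mitochondrial mRNAs turned the 12 h values to −0.21 and −0.30. Relative to the median of all genes B1_Mm at 12 h was at 0.29 with the main scaling and 0.33 with the mitochondrial one. Within a library B1_Mm made 32.6 to 41.4 counts per 100 counts of PB1D10, an old B1 relative, in Control cells. At 24 h the Activator replicates were at 55.4, 40.0 and 58.5 against 32.6, 33.96 and 39.3, so that they did not overlap (two-sided exact permutation p = 0.1, the smallest possible, adjusted 0.15). This ratio was not among the planned shares. It sets a family called higher at 12 h and 24 h over one called lower at 3 h and 6 h in these data, so it gives the B1_Mm call no separate support. B1_Mur4 and B1_Mus2 were called against uninduced Activator cells at 12 h (log2 0.40 and 0.31) and 24 h (0.37 and 0.35), but not against Control cells at the same times.

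The families called lower were of other superfamilies or older B1 branches. MIR elements, ancient tRNA-derived SINEs shared by mammals, were the only superfamily of which every member, 4 of 4, was called lower at the end of induction, 3 h and 6 h. MIR3, the deepest of them, was as induction ended at 648.1, 598.5 and 690.6 in Activator cells and at 734.9, 1012 and 946.2 in Control cells, with no overlap (log2 fold change −0.47 ± 0.12, edgeR adjusted p = 0.00105). At 3 h it was at 672.3, 782.4 and 545.7 against 915.5, 1019 and 927.6 (−0.52 ± 0.12, adjusted p = 1.51e-04). MIRb and MIR differed by −0.41 and −0.38 at the end of induction and by −0.43 and −0.42 at 3 h. By 24 h the 4 MIR families were between −0.13 and −0.09 and none was called. The fall of MIR3 at the end of induction was −0.16 without replicate 2 (adjusted p = 0.233), and at 6 h it lost its call without replicate 1 (−0.33, adjusted p = 0.125), without replicate 3 (−0.31, adjusted p = 0.0735) and with DESeq2 size factors (−0.19, adjusted p = 0.182).

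MamSINE1, a rare tRNA-derived family at 13.4 to 35.7 CPM over all libraries, had the deepest fall of the 37 and was called lower at all 5 later times. As induction ended it was at 16.6, 16.1 and 16.7 CPM in Activator cells and at 20.7, 32.8 and 30.5 in Control cells, with no overlap (log2 fold change −0.75 ± 0.14, edgeR adjusted p = 7.21e-06). At 3 h it was at 16.3, 20.1 and 13.4 against 28.9, 30.9 and 29.2 (−0.84 ± 0.14, adjusted p = 2.00e-07). It was still lower at 24 h, with 22.0, 28.3 and 19.8 against 30.2, 28.1 and 35.7, where the groups overlapped through Activator replicate 2 (−0.44 ± 0.14, adjusted p = 0.00963). That last call was lost without replicate 1 (−0.42, adjusted p = 0.151), without replicate 3 (−0.23, adjusted p = 0.343) and with DESeq2 size factors (−0.29, adjusted p = 0.093). The 12 h call (−0.54) was lost without replicate 1 (−0.43, adjusted p = 0.0639).

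FAM, a fossil relative of the 7SL-derived SINEs, was at 3.45 to 8.17 CPM over all libraries. Its values as induction ended were 4.06, 4.11 and 4.64 in Activator cells and 4.88, 7.94 and 6.91 in Control cells, with no overlap (log2 fold change −0.60 ± 0.18, edgeR adjusted p = 0.00351). Without replicate 2 the value was −0.25 (adjusted p = 0.234). Its 6 h value was −0.51 (adjusted p = 0.00884), lost without replicate 1 (−0.53, adjusted p = 0.061) or 3 (−0.40, adjusted p = 0.138), and it was called at no other time.

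ID elements, which derive from an alanine tRNA by way of the BC1 RNA gene, fell in 3 of 4 families at the end of induction and in 4 of 4 at 3 h and 6 h. ID2 was at 239.3, 291.8 and 200.8 at 3 h in Activator cells and at 316.2, 343.4 and 323.7 in Control cells, with no overlap (log2 fold change −0.43 ± 0.12, edgeR adjusted p = 0.00165). Without replicate 3 this was −0.32 (adjusted p = 0.0686), and without replicate 2 the value at the end of induction went from −0.34 to −0.06. ID4 fell by 0.32 at 3 h and 0.28 at 6 h, with overlapping groups.

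Of the 4 families placed in the B4 superfamily, B4 and B4A were called lower at the end of induction and B4, B4A and RSINE1 at 3 h. B4 was at 2876, 3419 and 2367 at 3 h in Activator cells and at 3519, 3974 and 3605 in Control cells, just apart (log2 fold change −0.36 ± 0.12, edgeR adjusted p = 0.00772). Without replicate 3 this was −0.26 (adjusted p = 0.134) and with DESeq2 size factors −0.22 (adjusted p = 0.108). RSINE1 differed by −0.27 and B4A by −0.32 at that time, while ID_B1, a fused element, was called at none. Without replicate 2 the values at the end of induction were 0.00948 for B4A (−0.31 with it) and −0.02 for B4 (−0.34 with it). All 4 were within −0.07 and 0.06 at 12 and 24 h.

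Old B1 relatives were called at the same times. Of the 16 families of the Alu superfamily 2 were lower at the end of induction, 8 at 3 h and 8 at 6 h, and none at 12 or 24 h. PB1D10 differed by −0.33 at 3 h (edgeR adjusted p = 0.0119) and −0.27 at 6 h (adjusted p = 0.0442), and both calls were lost with DESeq2 size factors (−0.20 and −0.10) and without replicate 3 (−0.22 and −0.24). AmnSINE1, of the Deu group of ancient vertebrate SINEs, differed by −0.35 at 3 h (adjusted p = 0.0236), lost without replicate 3 (−0.24), and was called at no other time.

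**Figure D4:**
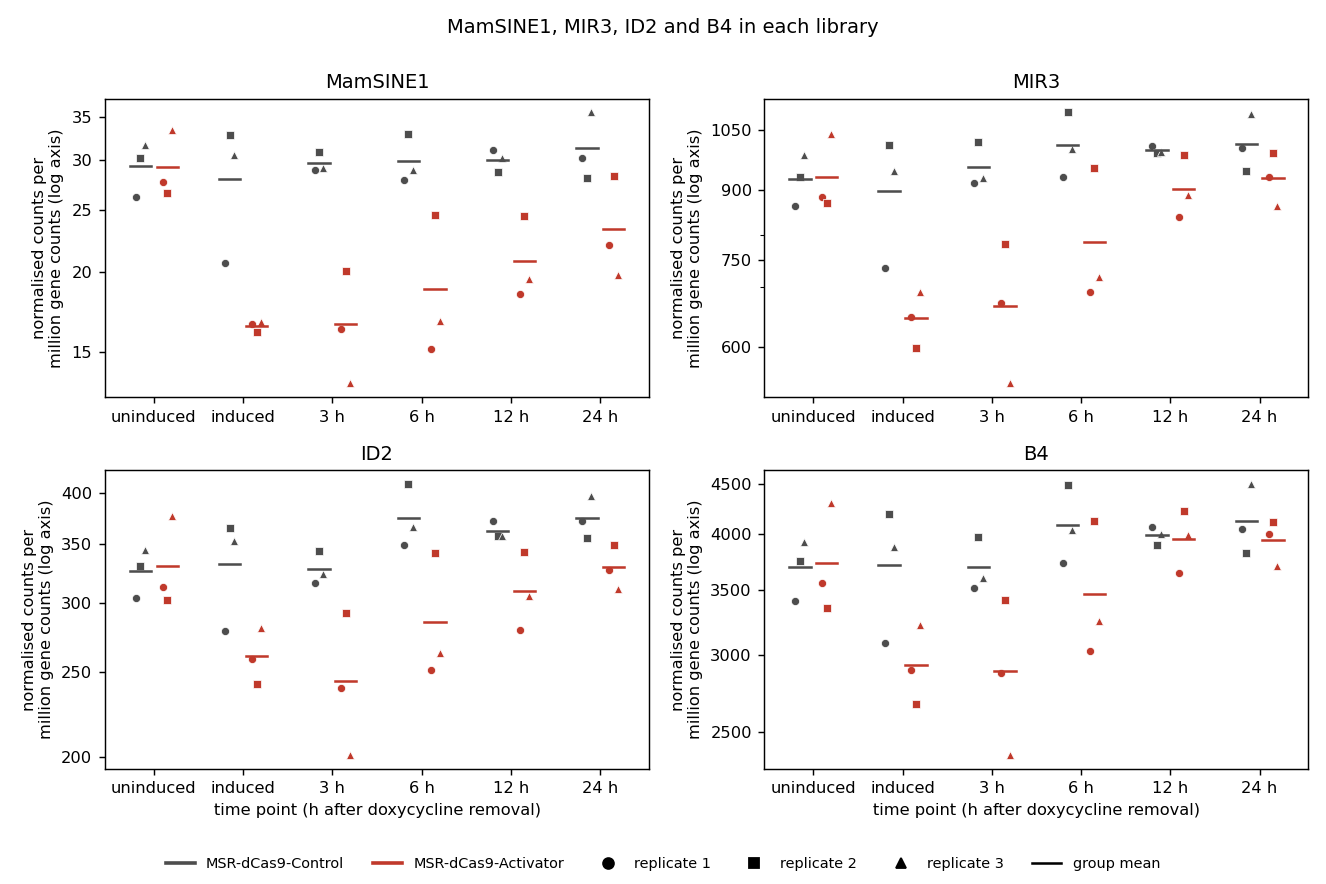
Levels in CPM relative to gene counts (log axis) of MamSINE1, MIR3, ID2 and B4 are plotted for every library by time point, with grey for Control, red for Activator, a marker shape for each replicate and bars at group means. Activator means are lowest at the end of induction or 3 h, where ID2 averages 244.0 against 327.8 in Control cells, and approach the Control means by 24 h; Control replicate 1 at the end of induction is low in all 4 panels.

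Summed over the 37 families, SINE counts were 6.79 to 9.66% of gene and repeat counts in Control libraries. At 3 h the Activator replicates were at 6.90, 7.29 and 5.22%, below the Control replicates at 7.57, 8.46 and 7.59%. At 24 h they were at 10.9, 10.17 and 9.98%, above 9.25, 8.84 and 9.66%. The groups overlapped at the other 4 time points, and the exact permutation p was 0.1 at both, 0.3 after adjustment over the 6 times. As a share of repeat counts without the satellites GSAT_MM and SYNREP_MM, SINE counts were lower in all Activator replicates from the end of induction to 12 h, for example 31.8, 34.3 and 32.5% against 39.4, 39.7 and 39.8% at 3 h. Without the 3 B2_Mm families the SINE level was 0.827 times that of Control cells at 3 h, 1.02 times at 12 h and 1.00 times at 24 h, with overlapping groups throughout.

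No SINE family was called in the Control line. Against uninduced Control cells 0 of 37 were called by edgeR at any of the 5 later times, with 0 at an unadjusted p under 0.05, against 0%, 0.067%, 0%, 0% and 0.067% of all repeat families. DESeq2 also called 0 at each time. Their log2 changes lay between −0.16 and 0.33. In Activator cells 17, 26, 5, 8 and 8 of 37 differed from uninduced cells, against 49.3%, 60.7%, 60.1%, 63.5% and 48.7% of all repeat families. These were 0 higher and 17 lower as induction ended, 2 and 24 in the 3 h cells, 3 and 2 in the 6 h cells, and 7 and 1 in both later groups.

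The test of the difference between the lines' changes concerned each line's own uninduced cells. It called 4, 8, 6, 4 and 3 of 37 families from the end of induction to 24 h, against 22.6%, 41.5%, 38.7%, 46.6% and 16.9% of all repeat families. Without replicate 3 it called 0 families at the end of induction, 6 h and 24 h. For B2_Mm1a that difference was 1.07 ± 0.41 at 3 h (edgeR adjusted p = 0.0428), 1.72 ± 0.42 at 6 h (0.00234), 2.13 ± 0.42 at 12 h (2.08e-04) and 2.04 ± 0.42 at 24 h (0.00106). B2_Mm1t and B2_Mm2 were called from 6 h on, with 1.71 and 0.96 at 12 h. The 4 called as induction ended were FAM, MIR3, MIRb and MamSINE1, all lower. B1_Mm and B1_Mus1 were called in this test at no time.

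Genes of RNA polymerase III and of SINE regulation were then examined, in 5 lists. A gene was called at an adjusted p under 0.05, a log2 fold change beyond 1 and a mean above 100 normalised counts, which held in either direction for 0.213% of 28621 genes before induction, 8.46% at its end, and 12.8%, 13.8%, 15.2% and 7.44% at 3, 6, 12 and 24 h. Before induction no gene of the 5 lists was called.

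Of 13 subunits of RNA polymerase III 0 were called higher at any time and 1, 3, 3, 2 and 0 lower from the end of induction to 24 h. With no limit on the fold or the mean, 0, 2, 2, 1 and 1 of the 13 were higher at an adjusted p under 0.05 and 6, 7, 8, 9 and 7 lower. The share of all genes at that limit alone was not counted, so these counts cannot be set against it. The list median log2 fold change was −0.22 at the end of induction and −0.535 at 12 h, against 0.11 and 0.13 for all genes. Polr3e, which encodes a subunit of the enzyme, was at 18.1 ± 1.76 CPM (SD, n = 3) in Activator cells and 40.9 ± 1.11 in Control cells at the end of induction (log2 −1.18 ± 0.15 SE, edgeR adjusted p = 8.47e-08). Of 17 polymerase III transcription factors 0 were called higher and 1, 2, 2, 2 and 0 lower. At the adjusted p alone, 3, 5, 5, 2 and 3 were higher and 8, 9, 10, 9 and 10 lower, again without the share of all genes. Gtf3c4, a subunit of the factor TFIIIC that binds the internal promoter, was at 38.07 ± 9.5 against 105.6 ± 1.77 at the end of induction (log2 −1.49 ± 0.14, edgeR adjusted p = 9.41e-10). Its other subunits moved both ways then, at edgeR adjusted p under 0.05 but short of the fold limit. Gtf3c1 and Gtf3c3 were higher (log2 0.28 and 0.31), and Gtf3c2, Gtf3c5 and Gtf3c6 lower (−0.29, −0.23 and −0.58).

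In the list of short RNAs made by polymerase III, genes were called only higher. The list named 9 such RNAs, measured as 10 entries because Rmrp has 2 with nearly the same counts. Of the 10 entries 4 were higher at 6 h and 5 at 12 h, and 0 at the other times, with 0 lower throughout and a median log2 fold change of 0.49, 0.51, 1.08, 1.21 and 0.75. Chosen after their values were seen, Rn7sk, the RNA that restrains the elongation factor P-TEFb, was at 7805 ± 2290 against 3291 ± 621 CPM at 12 h (log2 1.24 ± 0.19, edgeR adjusted p = 1.61e-06), and Rpph1, the RNA of ribonuclease P, was at 4555 ± 1150 against 2096 ± 409 (1.16 ± 0.36, adjusted p = 0.00564). Scaled to mitochondrial mRNAs no gene of the 5 lists was called higher at any time, so the calls of these RNAs were lost, and 9, 20, 28, 29 and 13 genes of all 5 lists together were called lower from the end of induction to 24 h. Without replicate 1 the genes of the 5 lists called higher numbered 1 in place of 5 at 6 h and 2 in place of 6 at 12 h.

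Related entries of the repeat table, also chosen after their values were seen, moved in both directions. 7SLRNA, the parent RNA of B1, was at 52260, 31010 and 44920 at 12 h in Activator cells and at 16940, 19720 and 17390 in Control cells, with no overlap (log2 fold change 1.23 ± 0.17, edgeR adjusted p = 3.65e-07). The 7SK entry, which covers the same RNA as Rn7sk, was at 6795, 3744 and 5880 against 2261, 2301 and 1943 (1.31 ± 0.20, adjusted p = 1.97e-06). In both entries Activator replicate 2 was the lowest, as in B2_Mm1a. BC1_Mm, the entry of the RNA from which ID elements descend, was at 250.8, 299.4 and 208.7 against 322.6, 372.6 and 337.7 at 3 h, with no overlap (−0.45 ± 0.12, adjusted p = 9.88e-04). The 5S entry was called at no time, with a log2 fold change of 0.26 ± 0.14 at 12 h (edgeR adjusted p = 0.0961). Of 56 families of the tRNA class 45 were higher and 2 lower at 12 h, against 52.9% and 9.99% of all repeat families. Their median log2 fold change was 2.29.

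Of 11 chromatin factors tied to SINE silencing 0 were higher at any time and 1, 2, 3, 5 and 6 were lower, with medians of −0.28, −0.46, −0.52, −0.95 and −1.02. At the end of induction the called gene was Adnp, whose protein binds and restrains SINE B2 copies with the remodeller Chd4, at 47.6 ± 9.67 against 103.3 ± 1.85 (log2 −1.14 ± 0.12, edgeR adjusted p = 6.91e-09). At 24 h the lowest by fold were Dnmt1, the maintenance DNA methyltransferase (−1.25 ± 0.11), Cbx3, encoding HP1 gamma (−1.23 ± 0.13), and Uhrf1, the partner of Dnmt1 at replicated DNA (−1.18 ± 0.11). Of 12 proteins that bind or process SINE RNA 1 was higher (Hnrnpc) from 3 to 12 h and 0, 1, 2, 2 and 0 were lower. Chosen after its values were seen, Hnrnpc was at 700.1 ± 160 against 276.2 ± 15.4 at 12 h (log2 1.32 ± 0.15, edgeR adjusted p = 4.72e-09).

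**Figure D5:**
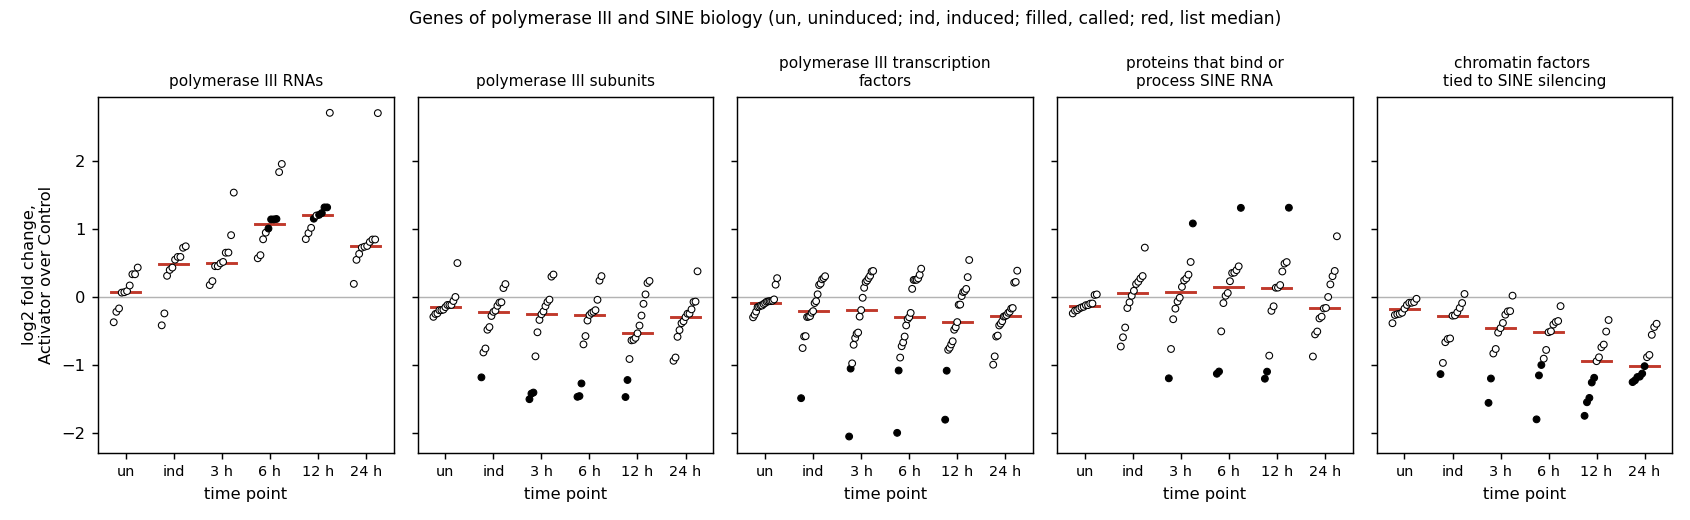
The log2 fold change of Activator over Control cells is plotted for each gene of 5 lists at 6 time points, with filled points for called genes and a red bar at the list median. Polymerase III RNAs lie above 0 at 6 h and later with a median of 1.21 at 12 h, whereas the chromatin factors fall to a median of −1.02 at 24 h.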

How the data were processed

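The data were counts for genes and repeat families in 36 total RNA libraries of 2 MEF lines, from 1 table. The deposited values are raw counts, which the authors made by trimming with cutadapt, alignment with STAR (GRCm38) and counting of both feature types by TEtranscripts. The handling of multi-mapping reads, the strand setting and the annotation release are not given in the sources used here. Repressor libraries were not analysed here. 1 entry with no name (at most 0.00452% of counts) was left out. The members and the gene lists were chosen with earlier results of these data known.

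From the counts, edgeR 4.0.16 (R 4.3.3, limma 3.58.1) fitted 12 groups with a replicate term by quasi-likelihood, as the study's design has a replicate term. Library sizes and TMM factors came from genes only, and filterByExpr set the low-count filter. Repeat families and genes were fitted separately, each with Benjamini-Hochberg adjustment over all features tested. Errors are SE of log2 fold changes or SD over replicates. Shares were tested with two-sided exact permutation tests. The scripts were tested on simulated data. Named families were a set of 20 plus the 3 largest called rises and falls at the end of induction, 12 h and 24 h that averaged 100 normalised counts or more, and named genes up to 3 called per list with the largest fold at the end of induction and at 24 h. Alternatives chosen after seeing the data were scaling to the other 34 SINE families for B2_Mm, leave-out values of the B2 ratio and the gene list settings. DESeq2 1.42.0 and the other alternatives, including other scalings, a fit without the replicate term, single time points and leaving out libraries, are described at the end. SINE counts numbered 2958859 or more per library. p-values rest on the spread between libraries.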

Additional observations from a re-analysis of the deposited data

Results flagged for a closer look

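In 23 cases the change of a named SINE family from uninduced cells differed between the lines by the edgeR interaction test (adjusted p under 0.05), and each value is the Activator change less the Control change on the log2 scale. Lower in Activator cells at the end of induction were FAM (−0.744), MIR3 (−0.477), MIRb (−0.444) and MamSINE1 (−0.745). Of the named families ID2 (−0.451), MIR (−0.442), MIR3 (−0.529), MIRb (−0.464) and MamSINE1 (−0.843) were lower at 3 h, and lower at 6 h were FAM (−0.659), ID2 (−0.42) and MamSINE1 (−0.677). At 12 h only MamSINE1 was lower (−0.54), and at 24 h no family was, under the main settings. Higher were B2_Mm1a at 3 h (1.07), B2_Mm1a (1.72), B2_Mm1t (1.32) and B2_Mm2 (0.574) at 6 h, the same 3 at 12 h (2.13, 1.71 and 0.961) and at 24 h (2.04, 1.56 and 0.809).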

How the results depend on the processing

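The rise of B2_Mm1a and B2_Mm1t at 12 h kept its direction and call under all 19 alternatives run (log2 fold change 1.64 to 2.67 for B2_Mm1a), whereas the number of families called lower moved with scaling and with single libraries. Of the values of named families under alternatives, 2080 kept their side of the threshold, 192 lost a call, 108 gained one and 14 changed sign while called under at least 1 of the settings compared. Values called under neither setting could change sign without being counted, and the cause was not tested.

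Activator against Control, families called were 13, 25, 21, 6 and 6 from the end of induction to 24 h. The share of all repeat families called was not counted under any alternative fit, so the SINE counts of those fits have none beside them. DESeq2 called 8, 10, 5 and 10 up to 12 h, DESeq2 size factors 6, 10, 5 and 10, mitochondrial scaling 31 at the end of induction, 36 at 6 h and 32 at 12 h, the libraries of the time point alone 1 at the end of induction, 15 at 3 h and 17 at 12 h, and a log2 limit of 0.5 left 2, 4, 5 and, at 24 h, 3. For the Activator line against uninduced (17, 26, 5, 8 and 8), DESeq2 called 7 at the end of induction, 10 at 3 h, 22 at 12 h and 15 at 24 h, its size factors 6, 10, 21 and 15, mitochondrial scaling 35 at the end of induction, 36 at 6 h and 3 at 24 h, and the log2 limit left 3, 4, 5 at 12 h and 4 at 24 h. For the difference between lines in the change (4, 8, 6, 4 and 3), DESeq2 gave 2 and 3 at the first times and its size factors 2 and 2, the log2 limit 2 and 3, gene totals without TMM 15 and repeat counts in the library size 13 at 3 h, and mitochondrial scaling 34, 33 and 12 at 3, 6 and 12 h.

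Leaving out replicates or single libraries gave, for the end of induction, 3 h, 6 h and 24 h in that order, 4 to 25, 3 to 31, 4 to 24 and 3 to 9 calls between lines. For tests within the Activator line and of the difference between lines, only whole replicates were left out. In the Activator line this gave 5 to 8, 2 to 28, 4 to 12 and 3 to 13 at those times. For the difference between lines it gave 0 to 1, 1 to 11, 0 to 7 and 0 to 8. B4A at the end of induction ranged from −0.413 to 0.00948. Genes of the 5 lists called ranged from 8 to 15 at 6 h and from 5 to 15 at 24 h (15 without replicate 2).

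Values that changed sign and were called with the main or the mitochondrial scaling were, with the latter, B1_Mm (−0.574 at 6 h, −0.211 at 12 h), B1_Mus1 (−0.607, −0.297), B1_Mur4 (−0.666 at 6 h), B2_Mm2 (−0.245 at 3 h, −0.0528 at 6 h), and B3 (−0.578), B3A (−0.554), B4A (−0.611) and ID_B1 (−0.558) at 12 h. With the libraries of 12 h alone B4 was at 0.135 and RSINE1 at 0.137. The same scaling called 9, 20, 28, 29 and 13 genes of the 5 lists (3, 9, 15, 17 and 6 otherwise). The SINE share of Activator over Control cells was 1.21 at 24 h over gene counts, and 0.819 at 12 h and 0.962 at 24 h over repeat counts without satellites.

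Same-numbered libraries of the lines deviated together with correlations of 0.1485 to 0.4949 at most times, but −0.006003 and 0.03443 for replicate 2 at 12 and 24 h, and 16 of 18 correlated best with their own number. Without the replicate block the difference between lines at 3 h was called for 5 families in place of 8, and all other counts stayed within 1.5 times.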
